A study of Mus musculus with 6 samples.

Results

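The exocrine pancreas makes digestive enzymes in acinar cells, and its islets make hormones in beta cells and other endocrine cells. This report describes 10 genes of those tissues in RNA from the mouse stomach antrum, the lower part of the stomach that ends at the duodenum. Of the 10, 8 are acinar genes and 2 are genes of the beta cell. They were chosen by gene symbol, since their signals had been seen to vary between arrays of the same strain, so that variation is described here and not tested. The platform annotation gave them 20 probe sets, 15 for the acinar genes and 5 for the islet genes, out of 22626 probe sets that are not controls. A further probe set that Cela3b shares with another elastase gene was left out.

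The study compared antral RNA of Satin, Beige and C57/BL6 (BL6) mice on Affymetrix arrays, 6 in all, with 2 arrays, replicate 1 and replicate 2, for each of the 3 strains. As background, Satin mice carry a mutation of Foxq1, a forkhead transcription factor gene, and Beige mice one of Lyst, and both strains are known for their coats. BL6 and Beige were titled as controls. Treatment, age and sex of the mice, the background strains of Satin and Beige, and whether Satin mice also carry the Lyst mutation, are not stated in the labels. The design speaks of 2 mice per strain and does not say that each array holds RNA of 1 mouse. Values below are the deposited signals, linear intensities per probe set, unless a log2 scale is named.

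Acinar cells pack their enzymes, mostly as inactive precursors, into granules that empty through the pancreatic duct into the duodenum. Trypsin, chymotrypsin, elastases and carboxypeptidases digest protein, and pancreatic lipases digest fat with the help of colipase. Insulin and islet amyloid polypeptide are stored together in beta cell granules and released into the blood. The pancreas lies against the stomach and duodenum, and the antrum has endocrine cells of its own, among them G cells that make gastrin.

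Transcription of acinar enzyme genes is known to depend on PTF1, a complex that binds a site made of an E-box and a TC-box. Promoters of 8 of the 10 genes, from 250 bases before to 50 after the start, were found in the RefSeq table for GRCm38.p6, and 7 of these belong to acinar genes. The TC-box letters TTTCCC were searched on both strands and occurred in 4 of the 7, against 25.2% of all 32851 promoters in the table. Those 4 also held CACCTG or CAGCTG, 2 forms of the E-box, on either strand, and 8.16% of all promoters held TTTCCC with one of these. The 4 are shown because they hold both motifs. The genes of the other 3 acinar promoters, Cela3b, Cpb1 and Pnliprp1, had the same order of signals over the arrays described below, without TTTCCC in this window. Capitals mark these motifs, read on either strand.
Cpa1, plus strand, chr6:30638968-30639267: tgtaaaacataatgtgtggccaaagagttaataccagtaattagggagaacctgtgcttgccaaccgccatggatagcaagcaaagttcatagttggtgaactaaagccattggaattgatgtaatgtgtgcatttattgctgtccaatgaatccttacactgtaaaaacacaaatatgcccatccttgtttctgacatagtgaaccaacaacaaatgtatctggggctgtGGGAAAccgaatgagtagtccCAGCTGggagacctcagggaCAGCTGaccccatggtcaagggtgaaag
Cela2a, minus strand, chr4:141825956-141826255: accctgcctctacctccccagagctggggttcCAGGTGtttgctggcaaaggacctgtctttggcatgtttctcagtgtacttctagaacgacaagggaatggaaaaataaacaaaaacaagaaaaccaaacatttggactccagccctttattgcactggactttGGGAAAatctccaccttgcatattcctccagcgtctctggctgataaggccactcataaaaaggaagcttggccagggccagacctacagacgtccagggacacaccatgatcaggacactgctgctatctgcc
Prss2, plus strand, chr6:41521526-41521825: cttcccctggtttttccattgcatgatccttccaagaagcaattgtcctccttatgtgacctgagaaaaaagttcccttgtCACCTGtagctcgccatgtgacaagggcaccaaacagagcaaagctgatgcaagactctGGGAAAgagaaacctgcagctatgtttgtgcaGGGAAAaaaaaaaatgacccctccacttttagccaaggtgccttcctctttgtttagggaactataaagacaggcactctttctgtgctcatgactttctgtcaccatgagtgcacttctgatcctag
Ctrb1, minus strand, chr8:111690961-111691260: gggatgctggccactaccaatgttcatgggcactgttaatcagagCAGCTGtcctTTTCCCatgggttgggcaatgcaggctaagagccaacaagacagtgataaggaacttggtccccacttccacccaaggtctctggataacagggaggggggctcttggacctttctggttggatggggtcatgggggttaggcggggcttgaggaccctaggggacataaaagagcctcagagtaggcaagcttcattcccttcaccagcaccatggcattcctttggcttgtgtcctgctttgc
In Cpa1 the TC-box letters began 19 bases before the start, and the nearer of a pair in Prss2 began 78 bases before it. A match of letters is a description of the sequence and no evidence of binding.

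The arrays were compared by quality and tissue markers before the genes were read. Median signals were 58.6 and 74.15 on Satin replicates 2 and 1, 49.1 and 49.5 on those of Beige, and 38.2 and 47.6 on those of BL6. RNA integrity, read as the signal at the 5' end of Gapdh over that at its 3' end, was lowest on BL6 replicate 1, at 0.526, and 0.988 to 1.18 elsewhere. Antral genes were present on every array. The surface cell gene Gkn1 ran from 9123 to 10645 over the 6 arrays. Not all antral genes were as even. Muc5ac, a surface mucin gene with the largest range on the antral list, had 435.0 and 471.8 on Satin replicates 2 and 1. It had 7485 to 7949 on the arrays of the other strains. The lowest signal of Gast, the gastrin gene, was 1457, on Satin replicate 1.

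Markers of other tissues also differed between arrays. Fat cell genes (12 on the array) summed to 1171 on BL6 replicate 1 and to between 3563 and 5103 elsewhere. Adipoq, the adiponectin gene, was at 1.2 on BL6 replicate 1 and between 149.6 and 469.1 on the others. Liver genes (7 on the array) summed to 3855 on Satin replicate 2 and to between 1284 and 1582 on the others, and Alb, the albumin gene, was at 1872.6 on Satin replicate 2 and at 82.6 or below elsewhere. The 9 lymphoid genes summed to 1493 and 909.4 in Satin, 596.9 and 675.8 in Beige, and 390.5 and 343.1 in BL6, replicate 2 before replicate 1. The part of these tissues in the results below was not tested.

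Of the 8 acinar genes, 7 were higher on the replicate 2 array than on the replicate 1 array of every strain, and colipase was high on all 6 arrays. Pnliprp1 was the least divided of the 7, since its replicate 1 signals reached 351.4 in Satin and its replicate 2 signal in Beige was 390.4. Over the 13 probe sets of the 7 genes, signals on Satin replicate 2 ran from 2427 to 6718 with a median of 5029, and on Satin replicate 1 from 1.5 to 351.4 with a median of 9.3. They ran from 309.2 to 1392 with a median of 1111 on Beige replicate 2, and from 1.2 to 150.6 with a median of 27.3 on Beige replicate 1. On BL6 replicate 2 they ran from 6689 to 11547 with a median of 9398, and on BL6 replicate 1 from 0.7 to 88.1 with a median of 5.6. All 13 probe sets were higher on replicate 2 in every strain, and all 13 fell in 1 order over the replicate 2 arrays, BL6 highest, Satin next and Beige lowest. The shares of all probe sets with this direction or this order were not computed. Probe sets of the same gene are not independent, and the genes were chosen for varying between arrays, so both counts are a description. In this tissue RNA, fewer acinar cells and less acinar RNA per cell cannot be told apart.

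**Figure D1:**
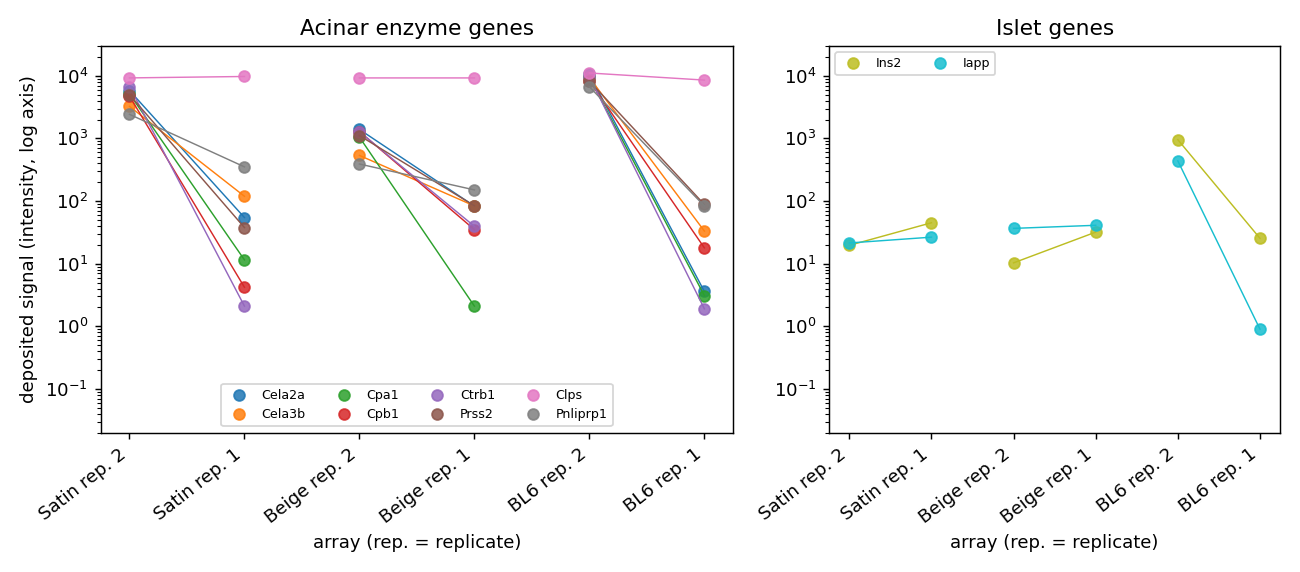
Deposited signal (log axis) of 8 acinar genes (left) and 2 islet genes (right) on each array, 1 probe set per gene, the one with the highest mean. Lines join the 2 arrays of a strain, replicate 2 at the left. Of the acinar genes 7 are higher on replicate 2 than on replicate 1 in every strain and Clps stays between 8547 and 11092, while Ins2 and Iapp are high on BL6 replicate 2 only.

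Among the proteases, Cpa1, which encodes carboxypeptidase A1, an enzyme that removes hydrophobic residues from the end of peptides, had signals of 5159, 1050 and 9398 on the replicate 2 arrays of Satin, Beige and BL6. On their replicate 1 arrays it was at 11.5, 2.1 and 3.1. The groups of replicate 2 and replicate 1 signals lay far apart, and all 3 replicate 1 signals lay under the value below which genes were left out of tests. Ctrb1, a chymotrypsinogen gene, had 6718, 1277 and 9668 on the same replicate 2 arrays and 2.1, 39.5 and 1.9 on the replicate 1 arrays. Its signal on Satin replicate 2 was closer to that of BL6 replicate 2 than for any other of the 7 genes, with a difference of -0.23 on the normalized log2(signal + 32) scale.

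Cpb1 encodes carboxypeptidase B1, which removes basic residues. Its signals were 4741, 1289 and 8324 on the replicate 2 arrays of Satin, Beige and BL6, and 4.2, 35.0 and 17.9 on the replicate 1 arrays. Prss2, an anionic trypsinogen gene, had 5012, 1111 and 8247 on the replicate 2 arrays and 37.7, 84.1 and 88.1 on the replicate 1 arrays by the probe set used in the tests. Its other probe sets, 3 of them, had 1082 to 11547 on the replicate 2 arrays and 1.5 to 81.4 on the replicate 1 arrays. All 4 carried the same order over the replicate 2 arrays. Trypsinogen genes form a family of close copies, and 3 of the 4 probe sets are of the type (x_at) that can bind related transcripts, so these signals may include other trypsinogens.

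The elastases followed the same course. Cela2a, a pancreatic elastase gene, had 5820, 1392 and 10556 on the replicate 2 arrays of Satin, Beige and BL6, and 54.5, 83.0 and 3.6 on the replicate 1 arrays. Cela3b, an elastase family gene, had 3253, 535.6 and 9371 on the replicate 2 arrays and 119.2, 83.5 and 33.2 on the replicate 1 arrays. Its other 3 probe sets had 0.7 to 37.4 on the replicate 1 arrays and 309.2 to 11046 on the replicate 2 arrays. None of these elastase probe sets overlapped between replicate 2 and replicate 1. The share of all probe sets without overlap was not computed, and the genes were chosen for this variation, so this is a description.

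The lipid-digesting genes parted. Pnliprp1, a gene related to pancreatic lipase, had 2427, 390.4 and 6689 on the replicate 2 arrays of Satin, Beige and BL6, and 351.4, 150.6 and 83.4 on the replicate 1 arrays. It had the smallest difference between replicates of the 7 genes in each strain, 2.81 in Satin, 0.86 in Beige and 5.52 in BL6 on the normalized log2 scale. Clps, which encodes colipase, the cofactor of pancreatic lipase, had 9258, 9252 and 11092 on the replicate 2 arrays and 9754, 9250 and 8547 on the replicate 1 arrays. Its groups overlapped, and it ranked 3 of 22626 probe sets by mean signal, close to the brightest signals on the arrays, so that a difference in Clps may be understated. A second probe set gave 6538, 6791 and 8632 on the replicate 2 arrays and 8055, 7745 and 6613 on the replicate 1 arrays. A difference between replicate 2 and replicate 1 like that of the other acinar genes was not seen in Clps, and at this brightness the arrays may not show one.

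On the normalized log2 scale, the median over the 8 acinar genes of replicate 2 minus replicate 1 was 6.20 in Satin, 3.16 in Beige and 6.94 in BL6. Most replicate 1 signals lay at the low end of the scale, where the added 32 sets the size of a difference, and replicate 2 signals in BL6 lay near the top, so these sizes are limited at both ends. With 100 added in place of 32 the medians were 5.17, 2.62 and 5.84. A difference of at least 2 on this scale was seen in 7, 5 and 7 of the 8 genes, and in 0.394%, 0.16% and 0.522% of all 9395 genes tested. Cela3b in Beige lay at the threshold, at 2.00 after rounding and just under it before. Over all genes, 10, or 0.106%, passed 2 in every strain, and all 10 were acinar genes. They were Cela2a, Cpa1, Cpb1, Ctrb1 and Prss2 of the 10 genes described here, and Cel, Ctrl, Rnase1, Sycn and the trypsinogen-like 2210010C04Rik. Since the genes were chosen for this variation, the counts are a description.

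**Figure D2:**
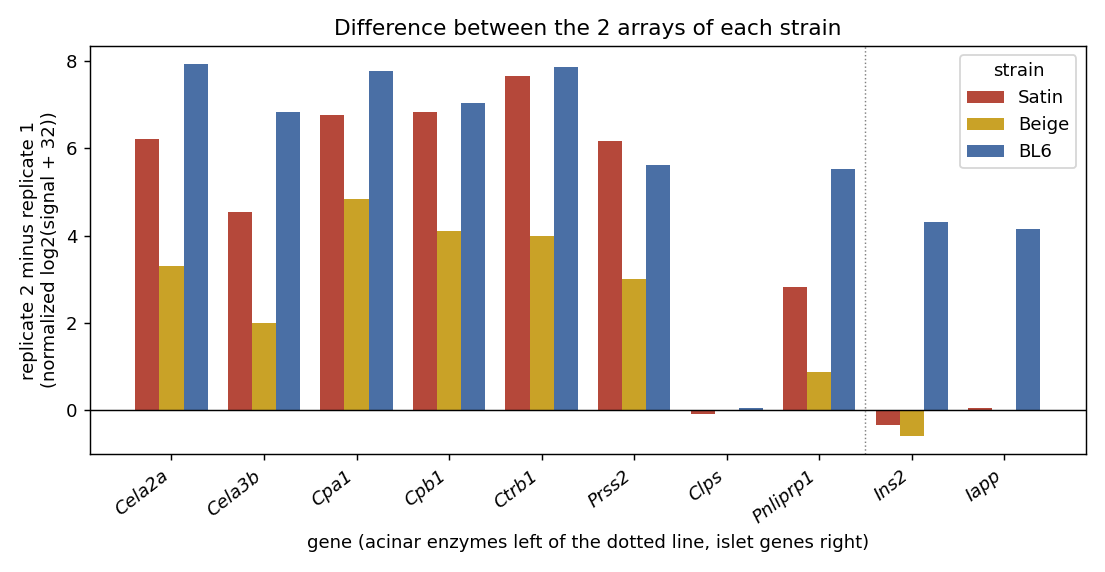
Replicate 2 minus replicate 1 within each strain, in normalized log2(signal + 32), for the 8 acinar and 2 islet genes, 1 bar per strain and no error, since each bar is a difference between 2 arrays. The 7 acinar genes other than Clps are above 0 in every strain, whereas Ins2 and Iapp stand out in BL6 only, at 4.32 and 4.14.

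Ins2 and Iapp did not follow the 7 acinar genes that were higher on replicate 2 in every strain. On the wider acinar list described below, some genes also stood out mainly on BL6 replicate 2. Replicate 2 minus replicate 1 in Satin, Beige and BL6 was 0.62, -0.49 and 3.37 for Reg3d on the normalized log2 scale. For Klk1b5 it was 0.85, 0.44 and 2.85, whereas for Reg2 it was 2.36, 1.03 and 4.41. Ins2, an insulin gene, had signals of 19.6, 10.3 and 953.7 on the replicate 2 arrays of Satin, Beige and BL6, and 45.0, 31.9 and 25.4 on the replicate 1 arrays. BL6 replicate 2 stood alone, and the replicate 2 signals of Satin and Beige were below all 3 replicate 1 signals. The probe set is of the x_at type and may also bind the transcript of the other mouse insulin gene.

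Iapp encodes islet amyloid polypeptide, or amylin, which beta cells secrete with insulin. By the probe set used in the tests it had 21.4, 36.6 and 437.4 on the replicate 2 arrays of Satin, Beige and BL6, and 26.5, 41.0 and 0.9 on the replicate 1 arrays. Again BL6 replicate 2 stood alone. Of the 4 Iapp probe sets, 3 were above 100 on BL6 replicate 2, at 437.4, 471.7 and 120.5, and the fourth was at 45.5 there, against 56.1 on Satin replicate 1. On the other 5 arrays no Iapp probe set exceeded 56.1. Replicate 2 minus replicate 1 was -0.35, -0.60 and 4.32 for Ins2 and 0.04, -0.04 and 4.14 for Iapp in Satin, Beige and BL6, on the normalized log2 scale.

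Satin replicate 2 had high acinar signal and no raised islet signal. Relative to BL6 replicate 2, Satin replicate 2 differed by -1.58 to -0.23 in the 7 acinar genes (median -0.78), by -4.56 in Ins2 and by -3.49 in Iapp, on the normalized log2 scale. Beige replicate 2 differed from BL6 replicate 2 by -3.98 to -2.55 in the acinar genes (median -2.80), by -4.78 in Ins2 and by -3.00 in Iapp. The islet differences are limited by the low end of the scale, since Ins2 and Iapp on Satin and Beige replicate 2 lay at the level of the replicate 1 arrays. The acinar differences are limited by the top, since the 7 genes had 6689 to 10556 on BL6 replicate 2, where the highest signal of any probe set was 11547, so the sizes of the acinar and islet differences cannot be set against each other directly. Each of these is a difference between 2 arrays and has no replicate check.

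A wider list of 39 acinar secretory genes, the 8 included, had 31 on the array. Of these, 22 were at least 2 higher on replicate 2 than on replicate 1 in Satin, 10 in Beige and 23 in BL6, on the normalized log2 scale. They made up 59.5%, 66.7% and 46.9% of all genes past that difference, which numbered 37, 15 and 49. The largest ranges over the arrays among the added genes were those of Ctrl, a chymotrypsin-like protease gene, the gene 2210010C04Rik, Sycn, a granule membrane protein gene, Gp2, which encodes the major granule membrane glycoprotein, and Reg1. Ctrl had 3869, 752.5 and 8985 on the replicate 2 arrays of Satin, Beige and BL6, and 5.4, 9.5 and 1.9 on the replicate 1 arrays. Gp2 had 989.7, 122.6 and 3604 on the replicate 2 arrays and 2.1, 19.8 and 54.6 on the replicate 1 arrays. Both kept the order of the acinar enzymes, with no overlap between replicate 2 and replicate 1. They were picked for their large ranges, and the share of all genes without overlap was not computed.

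**Figure D3:**
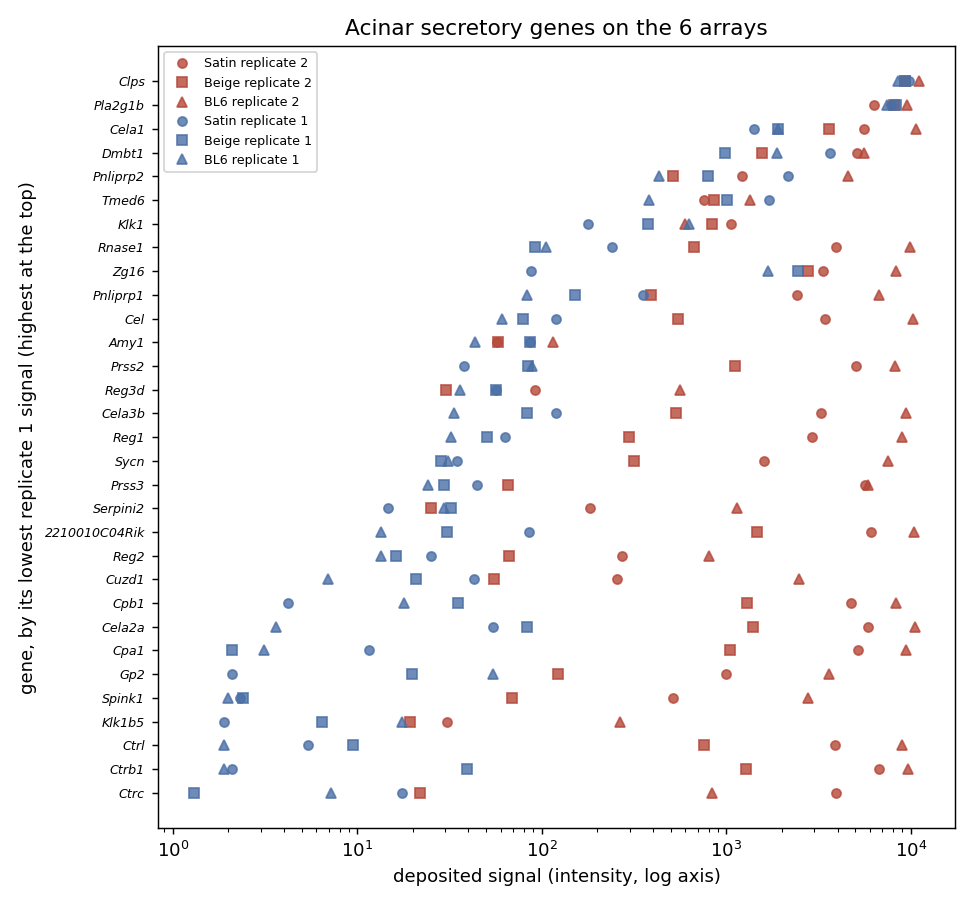
Deposited signal (log axis) of the 31 acinar secretory genes on the array, sorted by the lowest replicate 1 signal, with replicate 2 arrays in red and replicate 1 arrays in blue. Most genes have all red points right of all blue points, and the genes at the top, led by Clps and Pla2g1b, have high signals on the replicate 1 arrays too.

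Clps was not the only acinar gene found on the replicate 1 arrays. A signal above 300 on all 3 of them, a threshold set after the values were seen, was found for 6 of the 31 genes, namely Clps, Pla2g1b, Cela1, Dmbt1, Pnliprp2 and Tmed6. Pla2g1b, a secreted phospholipase gene of the pancreas and other tissues, had 6318, 8145 and 9548 on the replicate 2 arrays of Satin, Beige and BL6, and 7831, 8305 and 7458 on the replicate 1 arrays. The groups overlapped, as for Clps. Cela1, an elastase gene known from several tissues, had 5565, 3598 and 10598 on the replicate 2 arrays and 1405, 1906 and 1896 on the replicate 1 arrays, so it was raised on replicate 2 above a level that was already high. Pnliprp2, a second lipase-related gene, had 1210, 511.2 and 4582 on the replicate 2 arrays and 2161, 793.8 and 431.0 on the replicate 1 arrays. It was raised on BL6 replicate 2 only.

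Of all 31 acinar genes on the array, 26 fell in the order BL6, Satin, Beige over the replicate 2 arrays, and Amy1, Ctrc, Pla2g1b, Klk1 and Tmed6 did not. The order was read from deposited signals, without normalization between arrays, and Clps kept it only by 9258 on Satin against 9252 on Beige. The share of all genes with this order was not computed, so the count is a description. Of the 23 that were at least 2 higher on BL6 replicate 2 than on BL6 replicate 1, a choice that favours BL6 as the highest, 22 had that order. The exception among these was Ctrc, the chymotrypsin C gene, with 3934, 21.8 and 839.1 on Satin, Beige and BL6 replicate 2. Prss3, a further trypsinogen gene, was nearly level between Satin and BL6, with 5617, 65.4 and 5862 on the same arrays. Beige replicate 2 minus BL6 replicate 2 was -4.20 for Ctrc and -5.79 for Prss3 on the normalized log2 scale, outside the span of -3.98 to -2.55 of the 7 enzymes above. Ctrc and Prss3 were picked out after their values were seen.

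Away from the top of the scale, 9 of these 23 genes had a BL6 replicate 2 signal below 5000, a value set after the signals were seen. Their median for Satin replicate 2 minus BL6 replicate 2 was -2.61 on the normalized log2 scale. They were chosen by their BL6 replicate 2 signal, which enters the difference, so the values are a description. Cuzd1, an acinar granule protein gene, was at -3.57, with 255.0 and 54.8 on Satin and Beige replicate 2 and 2464 on BL6 replicate 2. Reg2, a regenerating protein gene of the pancreas, was at -2.01, with 272.8, 66.7 and 808.6 on the 3 arrays. The 9 genes ran from -3.57 to 1.67, so that the value of Iapp, -3.49, lay inside their span and that of Ins2, -4.56, lay below it. For Beige replicate 2 minus BL6 replicate 2 the 9 genes ran from -4.97 to -2.78, and both Ins2, at -4.78, and Iapp, at -3.00, lay inside.

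**Figure D4:**
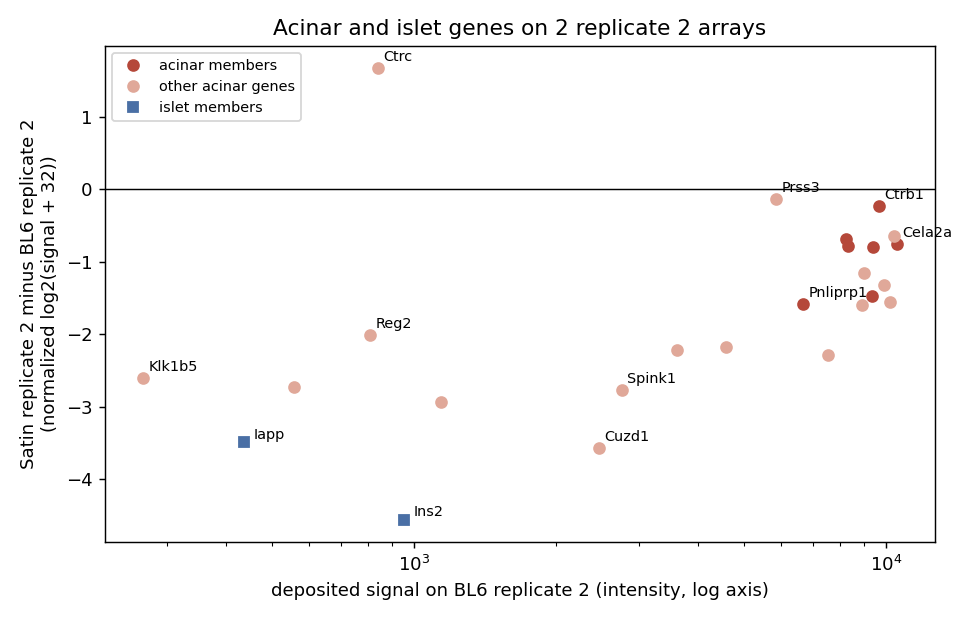
Satin replicate 2 minus BL6 replicate 2, in normalized log2(signal + 32), against the BL6 replicate 2 signal (log axis), for the 23 acinar genes that were at least 2 higher on BL6 replicate 2 than on BL6 replicate 1, and for Ins2 and Iapp. Each point is 1 gene on 2 arrays. Ctrc, at 1.67, is the only point above 0, and Ins2, at -4.56, is the lowest.

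Of 6 genes of acinar transcription factors, 0 were at least 2 higher on replicate 2 in any strain, where all genes gave 0.394% in Satin, 0.16% in Beige and 0.522% in BL6, so a count of 0 is near the background. Ptf1a, which encodes the acinar subunit of PTF1, had 45.3, 26.2 and 131.5 on the replicate 2 arrays of Satin, Beige and BL6, and 40.0, 9.4 and 27.4 on the replicate 1 arrays. It was highest on BL6 replicate 2, by 1.72 over BL6 replicate 1 on the normalized log2 scale, and its signals on the other 5 arrays were near the low end. Bhlha15, which encodes MIST1, a factor of secretory cells including gastric chief cells, had 98.7, 42.9 and 144.8 on the replicate 2 arrays and 253.6, 60.9 and 36.5 on the replicate 1 arrays, with no common order, and replicate 2 minus replicate 1 was -0.89, -0.32 and 1.63 in Satin, Beige and BL6.

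Of 22 other islet genes listed, 13 were on the array, and only 6 of these passed the filter on low means. Replicate 2 minus replicate 1 in BL6 was read on the normalized log2 scale, and the share of all genes within 1 of 0 was not computed. Of the 13 islet genes, 12 were within 1 of 0. The exception was Ero1b, which encodes an oxidase of the endoplasmic reticulum known from insulin-producing cells, at 1.89, with 210.0, 115.9 and 703.9 on the replicate 2 arrays of Satin, Beige and BL6, and 313.3, 157.7 and 168.6 on the replicate 1 arrays. Npy, a neuropeptide gene also expressed in nerves, had 82.2, 35.3 and 24.0 on the replicate 2 arrays and 56.0, 52.8 and 5.8 on the replicate 1 arrays, highest in Satin. Gcg, the glucagon gene, had 24.6, 59.5 and 51.0 on the replicate 2 arrays and 38.9, 49.8 and 40.4 on the replicate 1 arrays. Its groups overlapped. Ppy, the pancreatic polypeptide gene, was at 6.7 or below on all 6 arrays, and was picked out after its values were seen. Pdx1, a factor of beta cells and of the antrum and duodenum, had 319.9, 219.0 and 163.9 on the replicate 2 arrays and 197.0, 181.5 and 125.7 on the replicate 1 arrays.

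Of 17 endocrine genes that islets share with the antrum, 0 were at least 2 higher on replicate 2 in any strain, near the background given above, and the median of replicate 2 minus replicate 1 in BL6 was -0.19. Chgb, a granin gene with the largest range among the 16 of them tested, was at 578.3 on BL6 replicate 2 and at 1210 on BL6 replicate 1. Sst, the somatostatin gene of islet and antral D cells, had 341.5, 747.6 and 648.1 on the replicate 2 arrays of Satin, Beige and BL6, and 861.3, 786.9 and 292.3 on the replicate 1 arrays, with the groups overlapping, and was 1.05 higher on BL6 replicate 2 than on BL6 replicate 1 on the normalized log2 scale. Pcsk1, a prohormone convertase gene, was lower on replicate 2 in each strain, with differences of -0.74, -0.14 and -0.46 in Satin, Beige and BL6. Of 6 duct genes on the array, 0 passed a difference of 2 in any strain, also near the background. Cftr, a chloride channel gene of duct and intestinal cells with the largest range of the 6, had 292.2, 55.9 and 52.2 on the replicate 2 arrays and 146.2, 80.0 and 86.0 on the replicate 1 arrays. Both Satin signals were above those of the other strains, but the strain tests described below did not call Cftr.

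Between strains, none of the 10 genes passed the test. With limma's moderated test and Benjamini-Hochberg adjustment over 9395 genes, 0 of 10 were called at an adjusted p under 0.05 in Satin against the mean of BL6 and Beige, in Satin against Beige, in Satin against BL6 or in Beige against BL6. The count at an unadjusted p under 0.05 was also 0 in each comparison, where all genes gave 1180, 990, 1181 and 482 of 9395. In all genes tested the same comparisons called 1.44%, 0.894%, 0.745% and 0%, so a count of 0 among 10 is near the background. All 10 genes passed the filter on low means, and all 10 also passed it with BL6 replicate 2 left out. That array did raise the means of Ins2 and Iapp. On the replicate 1 arrays, Cpa1 lay under the cut on each, and Cpb1 and Ctrb1 on all but 1. The means of these acinar genes rested on their replicate 2 signals. For the 7 acinar genes, Satin minus the mean of both controls ran from -0.26 to 0.60 on the normalized log2 scale with SEs from 1.27 to 2.36. The SE of such a gene was larger than its difference in that comparison.

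Cela2a averaged 9.24 ± 4.39 in Satin, 8.65 ± 2.34 in Beige and 9.14 ± 5.61 in BL6 (normalized log2, SD, n = 2 each). Clps, with nearly equal arrays, averaged 13.21 ± 0.08 in Satin, 13.24 ± 0.00 in Beige and 13.23 ± 0.02 in BL6, and differed by -0.02 (SE 0.13, limma adjusted p = 0.968) in Satin relative to both controls. Ins2 averaged 5.81 ± 0.25 in Satin, 5.71 ± 0.42 in Beige and 8.03 ± 3.05 in BL6. Its differences were -2.22 (SE 1.05, limma adjusted p = 0.43) for Satin against BL6 and -2.33 (SE 1.05, limma adjusted p = 0.864) for Beige against BL6. For Iapp they were -1.44 (SE 1.00, limma adjusted p = 0.622) and -0.91 (SE 1.00, limma adjusted p = 0.904).

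A single array decided the islet comparisons. Without BL6 replicate 1, BL6 was represented by replicate 2 alone, the array on which both genes were high. The differences of Ins2 and Iapp were then -4.45 and -3.57 in Satin against BL6, and -4.55 and -3.05 in Beige against BL6. That fit assumed the lone BL6 array to vary like the other strains, so these values are a description and no p-value is given. In a different comparison, Satin minus the mean of both controls, the differences were -1.06 for Ins2 and -0.98 for Iapp with all arrays. Without BL6 replicate 2 they were 0.02 and 0.19. BL6 replicate 1 was also the array with the lowest Gapdh ratio and fat cell signal, and the part of these in the islet comparison was not tested. The wider acinar list gave 0 calls among the 23 genes outside the 8, and the further islet list 0 among 6 tested, for Satin relative to both controls. All genes gave 1.44% in that comparison, so both counts of 0 are near the background.

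Genes whose pattern over the 6 arrays was most like the mean of the acinar genes, or like Ins2 or Iapp, were sought among 138 genes. These had a range of at least 2 on the normalized log2 scale. Genes on the acinar, acinar transcription factor and islet lists were left out beforehand, so none of those could appear. Cp, the ceruloplasmin gene, came first (Pearson r = 0.957 over 6 arrays), with 168.7, 78.2 and 96.0 on the replicate 2 arrays of Satin, Beige and BL6, and 27.1, 8.6 and 25.8 on the replicate 1 arrays. It was higher on each replicate 2 array than on any replicate 1 array, though with Satin highest. Gal, the galanin gene, followed (r = 0.904), with 194.5, 136.9 and 340.8 on the replicate 2 arrays and 104.2, 82.0 and 45.0 on the replicate 1 arrays. Next came Hpx (0.820), Gatm (0.814), Lrg1 (0.791), Reg3b (0.775), Krt13 (0.770), Gamt (0.764), Pzp (0.756) and Aif1l (0.686). Hpx, which encodes hemopexin, is also on the liver list.

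Most like Ins2 were Tmed11 (r = 0.974), Cbs (0.966), Chst2 (0.917), Nupr1 (0.895) and Slc38a5 (0.892). Most like Iapp were Gatm (0.967), Nupr1 (0.965), Chac1 (0.929), Cldn10 (0.922) and Gal (0.922). Nupr1, a stress response gene, had 503.4, 628.7 and 2028 on the replicate 2 arrays of Satin, Beige and BL6, and 683.3, 744.2 and 267.1 on the replicate 1 arrays. Gatm, which encodes the first enzyme of creatine synthesis, had 36.3, 35.9 and 230.9 on the replicate 2 arrays and 4.1, 25.6 and 3.9 on the replicate 1 arrays. Both were highest on BL6 replicate 2. With 6 arrays a high r can rest on 1 array, and these values describe the arrays only.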

How the data were processed

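The authors deposited linear intensities of 22690 probe sets on each of 6 arrays of biotinylated cRNA from total RNA, per the labels. The algorithm and scaling behind the deposited intensity values are not stated in the labels, and 0 sample columns were left unused. Arrays were assigned by title. The 64 control probe sets were left out, the rest were taken as log2(signal + 32), with quantile normalization between arrays, and the probe set with the highest mean was taken per gene (12393 genes). Genes with a mean below 5.74 (the lowest 30% of probe sets) were left out, which left 9395.

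Strains were compared with limma 3.58.1 in R 4.3.3 (lmFit, eBayes with trend, two-sided, 6 arrays in 1 fit, 3 residual degrees of freedom and 9.24 after moderation), with Benjamini-Hochberg adjustment over all genes tested. On simulated data with 200 of 9395 genes changed, for Satin against the mean of BL6 and Beige, 61.0% of changes of 1 and 99.9% of changes of 3 (log2) were recovered, and 6.9% of calls were false. The changed genes were drawn from all 9395. These rates do not hold for genes with the spread of the 7 acinar genes, whose SEs were 1.27 to 2.36 in that comparison. For those genes the test could miss a large difference. With 2 arrays per strain, p-values measure the spread between arrays, which may be technical, and the number of arrays limits the precision.

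The genes and lists were chosen with earlier results of these data known. Named genes are the 10, some of the genes with the largest ranges over the arrays on a list, past the filter, and the genes most alike in pattern. Not every list has a gene named by its range. Adipoq was named among the fat cell genes, though Car3 had a larger range. Gkn1 and the acinar genes outside this choice were named after their values were seen. Deviations of same-numbered arrays from their strain means correlated across genes at 0.19 (Satin and Beige), 0.27 (Satin and BL6) and 0.12 (Beige and BL6). A fit with the replicate number as a block was therefore run beside the main fit, which did not pair the arrays. Without 43 listed pancreatic genes the values were 0.08, 0.03 and 0.01, so the correlations rested mostly on those genes. Promoter sequences are RefSeq's for GRCm38.p6. Probe sets were named from the platform annotation (20380 with 1 symbol, 691 with several, 1555 not listed).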

Additional observations from a re-analysis of the deposited data

How the results depend on the processing

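In 17 other settings, 0 of the 10 genes were called in any of the 4 strain comparisons, except for Ins2 and Iapp without BL6 replicate 1. There BL6 was represented by replicate 2 alone, the array on which both genes were high, so those calls are no test. Satin minus the mean of both controls was then -2.17 for Ins2 and -2.05 for Iapp. Of 680 gene differences recomputed, 87 had the opposite sign, 71 of them with 1 array left out, and 0 of these were called. Counts over all genes moved more. For Satin against the mean of both controls (135 called, 41 higher and 94 lower) the count was 1531 as deposited (1469 and 62), 2271 with hybridization control scaling (2210 and 61), 92 with median centring (46 and 46), 228 with the robust option and 36 without the trend, and 29 to 293 with 1 array left out. For Satin against Beige (84, 21 higher and 63 lower) it was 191 (151 and 40), 176 (143 and 33) and 52 (20 and 32) in the same 3 scalings, 49 without a filter, 18 without the trend, 37 with the mean of probe sets, and 9 to 144 with 1 array left out. For Satin against BL6 (70, 21 higher and 49 lower) it was 1875 (1834 and 41), 3023 (2985 and 38) and 45 (24 and 21), 33 without a filter, 12 without the trend, 22 with the mean of probe sets, 122 with the robust option, and 22 to 214 with 1 array left out. For Beige against BL6 (0) it was 3 as deposited, 4 with hybridization control scaling, and 0 to 9 with 1 array left out. Without normalization the median of all genes was 0.43 higher in Satin than in the mean of both controls. The cause of these changes was not tested. With the replicate number as a block the counts were 123, 66, 48 and 0, and the block changed no call of the 10 genes. The acinar medians of replicate 2 minus replicate 1 stayed between 5.17 and 6.62 in Satin, 2.62 and 3.72 in Beige and 5.84 and 7.46 in BL6 in the 6 other settings of scaling, pseudocount and probe set. Iapp, near 0 in 2 strains, moved in Satin (0.04) to -0.13 as deposited, 0.10 with median centring, -0.10 with hybridization control scaling and -0.19 with the mean of probe sets, and in Beige (-0.04) to -0.09, -0.08, -0.21 and 0.34.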

Other observations

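A few genes of the acinar list differed on the replicate 1 arrays, where the acinar enzymes were low. Zg16, which encodes a lectin of acinar granules and of intestinal goblet cells, had a signal of 87.2 on Satin replicate 1, against 2444 on Beige replicate 1 and 1673 on BL6 replicate 1. On the replicate 2 arrays it was at 3343, 2785 and 8305 in Satin, Beige and BL6. Klk1, a tissue kallikrein gene, had 177.6 on Satin replicate 1, against 375.9 and 629.0 on Beige and BL6 replicate 1. With 1 array per strain on that side the differences have no replicate check, and both genes were picked out after their values were seen.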
